A study of Mus musculus with 2 samples.

Results

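The actin, thymosin and actin-binding genes described here are Actb, Actg1, Pfn1, Cfl1, Tmsb4x, Tmsb10, Tpm3, Tpm4, Coro1a and Arpc2. They were chosen by symbol, through the gene identifiers of the tables, and are 10 of the 43346 mouse genes listed. The RNA carried poly(A) tails, was read from both fragment ends, and came from G1E-ER4 cells kept for 3 h with 17beta-estradiol at 10 nM. These immortalised mouse erythroid cells lack their own Gata1, and the factor GATA1 is put back joined to an estrogen receptor domain, which makes it respond to estradiol. The labels give the source as male and postnatal, with an age of 0 day. They describe 1 group of 2 biological replicates that share 1 cell sample record, so the spread between the libraries may be technical. No library of untreated cells was analysed here. All values are therefore levels in 1 line after estradiol, not responses to it.

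Actin exists as single subunits and as filaments, and most of the 10 genes encode proteins that move it between these forms. Profilin (Pfn1) binds single subunits and helps them join growing filament ends, while the beta thymosins (Tmsb4x, Tmsb10) hold subunits back from assembly. Cofilin (Cfl1) severs old filaments, the Arp2/3 complex (with Arpc2 as a core subunit) starts branches, the coronin Coro1a binds filaments and Arp2/3, and tropomyosins (Tpm3, Tpm4) coat filaments. In red cells, short actin filaments bound by tropomyosin join the spectrin network under the membrane, and remodelling of actin takes part in the expulsion of the nucleus.

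Replicate 1 held 31126949 and replicate 2 held 57853596 counts of fragments after rounding. Of 12 erythroid markers, 12 stood at 1 TPM or more in both libraries, beside 20.2% of all genes and 38.6% of protein-coding genes. TPM is an abundance per length of transcript, set to the same total in each library. The median level of the 12 markers was 110 TPM in replicate 1 against 96.6 in replicate 2. Their sum, most of it from the globin genes Hba-a1 and Hbb-bs in replicate 2, was 4788 TPM in replicate 1 against 18979 in replicate 2. Of the 12, 5 (Gata1, Alas2, Hba-a1, Hbb-bs and Slc4a1) had scaled counts at least 2-fold higher in replicate 2, as did 19.5% of all genes compared. The log2 ratios, replicate 1 over replicate 2, of Klf1 (0.82), Tal1 (0.86), Nfe2 (0.67) and Zfpm1 (0.43) had the other sign, and the list median was -0.29. Gata1 itself stood at 190 TPM in replicate 1 against 799 in replicate 2. Because these cells lack their own Gata1 and carry the introduced fusion, this level need not reflect their own erythroid state. Reads of the fusion cannot be told apart from any other Gata1 reads in these tables. The other marker lists reached 1 TPM in both libraries in 1 of 7 genes for megakaryocytes (Itga2b), 1 of 6 for fibroblasts (Vim), 1 of 7 for muscle (Des), 0 of 7 for granulocytes and monocytes, and 0 of 6 for lymphocytes. Their summed levels were 12.8 and 14.7 TPM for megakaryocytes, 1.57 and 0.99 TPM for granulocytes and monocytes, and 1.06 and 2.43 TPM for lymphocytes, in replicates 1 and 2. The fibroblast list summed to 251 and 365 TPM, nearly all of it Vim, and the muscle list to 1.85 and 1.24 TPM. Lyz2, Itgam, S100a8, Cd3e, Cd4, Cd8a, Ppbp, Vwf, Pdgfra, Thy1, Dcn and Ckm had no count in either library. The part of these erythroid differences in those between the libraries given below was not tested.

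The levels of the 10 genes ran from 6564 TPM in the mean to nearly none. Of the 10, 6 (Pfn1, Cfl1, Arpc2, Actb, Tpm3 and Actg1) were at 100 TPM or more in both libraries, as were 2.63% of all genes listed and 5.13% of protein-coding genes. Coro1a and Tmsb10 were lower, and 8 of the 10 genes reached 1 TPM in both libraries, against 20.2% of all genes and 38.6% of protein-coding genes. Tmsb4x and Tpm4 stayed under 1 TPM in both. The median level of the 10 was 195 TPM in replicate 1 against 153 in replicate 2 (174 ± 29.8, SD, n = 2), beside 17.9 and 17.2 TPM for the 9269 genes whose mean reached 1 TPM. Together the 10 genes took 1.26% of all TPM in replicate 1 and 0.727% in replicate 2. Pfn1 and Cfl1 made up 85.6% and 72.4% of that sum. With protein-coding transcripts only, a choice made after the values were seen, 3 genes (Pfn1, Cfl1 and Arpc2) remained at 100 TPM or more in both libraries and the median was 66.5 TPM. The RNA is from bulk cells, in which fewer cells with a transcript and less of it per cell cannot be told apart.

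**Figure D1:**
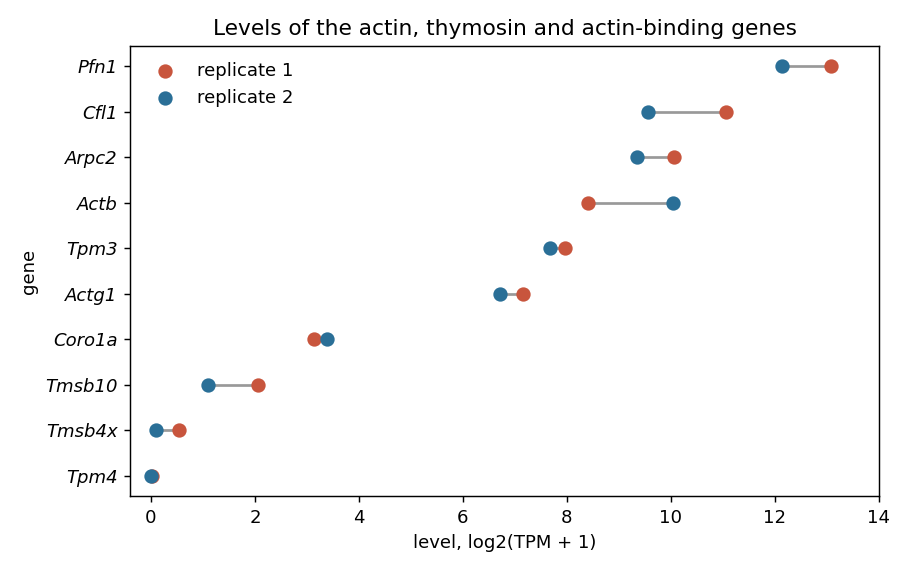
Level of each of the 10 genes as log2(TPM + 1), with 1 point for each library (red, replicate 1; blue, replicate 2) and a grey line between them. The genes are ordered by mean level: Pfn1 leads both libraries, Actb is the gene of the upper 6 that is higher in replicate 2, and Tmsb4x and Tpm4 lie at the left edge.

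In order of mean level the genes were Pfn1, Cfl1, Arpc2, Actb, Tpm3, Actg1, Coro1a, Tmsb10, Tmsb4x and Tpm4. The values of Cfl1 and Arpc2 overlapped between the libraries, and so did those of Arpc2 and Actb. Each of the other neighbours in this order was separated in both libraries, although the lowest places rest on 7 and 2 counts for Tmsb4x and on 1 and 0 counts for Tpm4.

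The libraries were compared gene by gene on counts scaled by TMM, a factor that allows for library size and composition. A two-sided exact conditional binomial test, adjusted by the Benjamini-Hochberg method over all genes with a summed count of at least 20, asked whether a difference exceeded counting noise. It compares libraries and not conditions, and with 1 library on each side no spread between replicates enters it. Of the 10 genes, 8 had enough counts, and 8 of these 8 differed beyond counting noise, as did 80.7% of the 10635 genes compared. At least 2-fold apart were 3 of the 8 (Cfl1 and Tmsb10 higher in replicate 1, Actb higher in replicate 2), beside 26.8% of all genes compared. Among all genes, 7.32% were at least 2-fold higher in replicate 1 and 19.5% in replicate 2, so of all genes past that fold 27.3% were higher in replicate 1, a share that became 42.1% with scaling by total count and 46.2% with upper quartile scaling. The median log2 ratio, replicate 1 over replicate 2, was 0.39 for the 8 genes and -0.06 for all genes, and the median size of the ratio was 0.53 and 0.59. Total count scaling put the median of all genes at 0.11 and upper quartile scaling at 0.16. No direction among the 8 genes changed with these scalings.

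**Figure D2:**
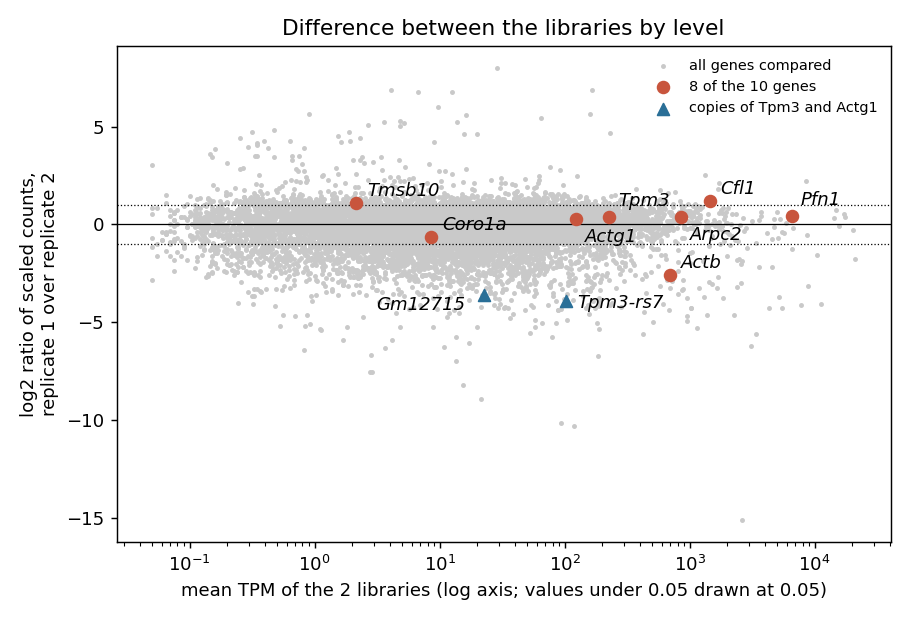
Log2 ratio of scaled counts, replicate 1 over replicate 2, against mean TPM on a log axis, for all 10635 genes compared (grey), the 8 actin-related genes with enough counts (red circles) and the copies Tpm3-rs7 and Gm12715 (blue triangles). Dotted lines mark 2-fold: Cfl1 and Tmsb10 lie above the upper line, and Actb and both copies lie below the lower one.

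The cytoplasmic actins are alike in coding sequence but share few long runs. Of the 50-base runs in their transcripts, 2916 in Actb and 2927 in Actg1, they share 30. The stretches below show where the coding sequences differ. Actb (beta actin, ENSMUSG00000029580.10, chr5:142903115-142906754, minus strand) and Actg1 (gamma actin, ENSMUSG00000062825.11, chr11:120345690-120348542, minus strand) have coding sequences of 1125 bases each, of which 128 differ (88.6% identical). Of the transcripts used, Actg1-202 held a minor share of its gene in both libraries (2.29% and 10.8%). The first 120 coding bases of 1 protein-coding transcript of each gene, with the 22 that differ in capitals, are as follows (GRCm38, GENCODE M21 transcripts).
Actb-201 (chr5:142905567-142905686): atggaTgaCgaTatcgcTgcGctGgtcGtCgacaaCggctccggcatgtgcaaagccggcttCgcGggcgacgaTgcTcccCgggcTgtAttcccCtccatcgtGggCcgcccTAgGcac
Actg1-202 (chr11:120347972-120348091): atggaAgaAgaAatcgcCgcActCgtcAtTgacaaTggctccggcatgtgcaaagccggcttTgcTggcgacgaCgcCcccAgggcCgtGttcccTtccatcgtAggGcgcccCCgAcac
The differing bases are scattered, and the longest lower-case runs are identical in both genes.

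Actb stood at 338 TPM in replicate 1 against 1048 in replicate 2 (693 ± 502, SD, n = 2), from 8219 and 81818 expected counts. It was the gene of the 8 with the largest difference: the log2 ratio of scaled counts was -2.59, or 6.03-fold higher in replicate 2. In TPM, which is scaled to length and to an equal total and not by TMM, the difference was 3.10-fold. The transcripts to which reads were assigned had a mean effective length of 979 bases in replicate 1 and 1490 bases in replicate 2. Actg1 stood at 142 TPM in replicate 1 against 103 in replicate 2 (123 ± 27.2), from 4653 and 6257 expected counts. Its scaled counts were 1.23-fold higher in replicate 1 (log2 ratio 0.29). Actb exceeded Actg1 in both libraries and made up 70.4% of their summed TPM in replicate 1 and 91.0% in replicate 2 (80.7 ± 14.5). With protein-coding transcripts only, a choice made after the values were seen, its share was 52.6% in replicate 1 and 95.6% in replicate 2.

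A large share of the Actg1 sequence is not unique. Of all 50-base runs in Actg1 transcripts, 37.4% also occur in transcripts of other genes, against 9.12% for Actb. Among genes with counts, the one that shares most with Actg1 is Gm12715, a processed pseudogene (chr4:103563402-103564529), which was given 102 counts in replicate 1 and 2116 in replicate 2, 12.4-fold higher in replicate 2 after scaling. With Gm12715 added, Actg1 had 4755 and 8372 counts and a log2 ratio of -0.09 in place of 0.29, so the direction of its small difference turned. The division of reads between gene and copy was made by the authors' quantification and could not be checked from the tables.

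Transcripts of the actins were divided very differently in the libraries. Actb-205, which the annotation classes as a retained intron, held 70.9% of Actb TPM in replicate 1 and 0.27% in replicate 2. Actb-201, the protein-coding transcript of 6 exons, held 25.1% in replicate 1 and 74.95% in replicate 2 (50.02 ± 35.3). Actb-206, a processed transcript of 5 exons, held 0% in replicate 1 and 16.9% in replicate 2. Protein-coding Actb transcripts together stood at 97.8 TPM in replicate 1 against 864 in replicate 2, so on that count too Actb was higher in replicate 2. The transcripts part at the end of an exon. There Actb-201 leaves out the next 454 bases and Actb-205 reads on through them. Of the 861 bases of Actb-205, 454 lie outside the exons of Actb-201 and 407 inside them.

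In Actg1, the protein-coding Actg1-204 led in replicate 1 with 59.6% and held 26.8% in replicate 2. The retained-intron transcript Actg1-207 held 33.2% in replicate 1 and 41.4% in replicate 2, where it led. Actg1-206, classed as a target of nonsense-mediated decay, the pathway that removes RNAs with an early stop, held 0% and 20.2%. The longer protein-coding Actg1-202 held 2.29% and 10.8%. Protein-coding Actg1 transcripts came to 88.3 TPM in replicate 1 against 39.5 in replicate 2. Of the 50-base runs of Actg1-206, 76.5% are also in Gm12715, and of those of Actg1-207, 65.2%. For the protein-coding Actg1-204 and Actg1-202 the shares are 54.7% and 51.1%.

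**Figure D3:**
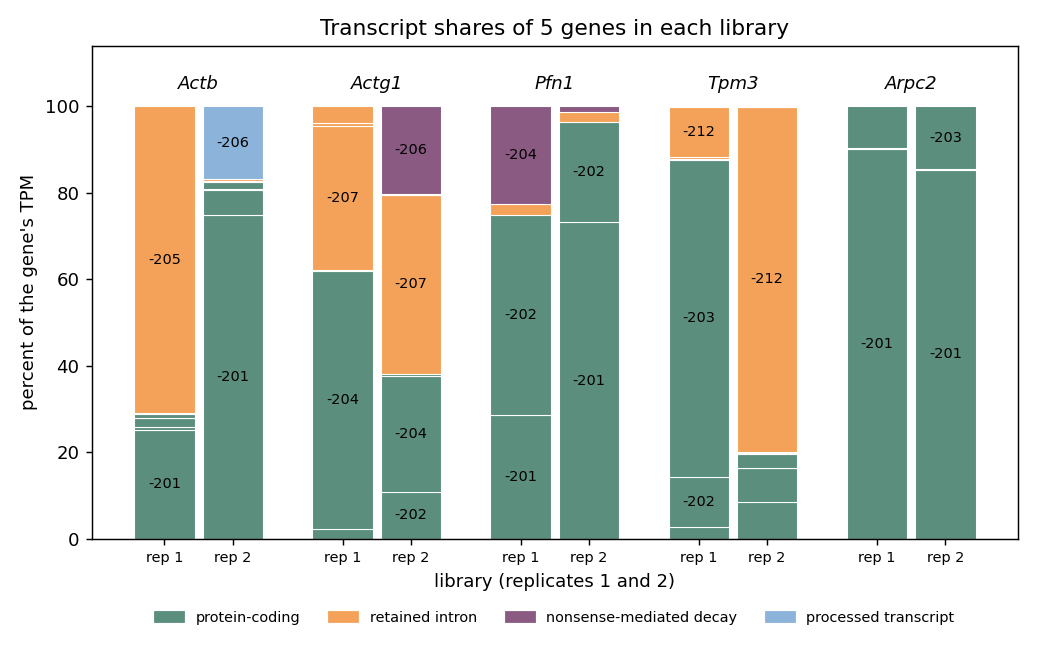
Percent of each gene's TPM held by each transcript in replicate 1 (left bar) and replicate 2 (right bar), coloured by annotation class, with the number of each transcript at 10% or more. The bars of Actb and Tpm3 are led by different classes, Actg1-206 has a segment in the replicate 2 bar alone, Pfn1-204 is at 22.5% and 1.37%, and Arpc2 is led by Arpc2-201 in both.

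Pfn1, profilin, was the most abundant of the 10 genes in both libraries. Its gene lies on the minus strand at ENSMUSG00000018293.4, chr11:70651850-70654644. It stood at 8617 TPM in replicate 1, rank 11 of all genes, and at 4512 TPM in replicate 2, rank 27 (6564 ± 2903, SD, n = 2). Expected counts were 129417 and 159252, and none of its 50-base runs occur in transcripts of another gene, and its counts were whole in both libraries. Scaled counts were 1.34-fold higher in replicate 1 (log2 ratio 0.42), with a mean effective length of 605 bases in replicate 1 and 673 bases in replicate 2. Per library, profilin stood 25.5-fold above Actb in replicate 1 and 4.31-fold above it in replicate 2.

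Of Pfn1 TPM, Pfn1-202, a protein-coding transcript of 2 exons, held 46.3% in replicate 1 and 23.3% in replicate 2. Pfn1-201, of 3 exons, held 28.6% and 73.2% (50.9 ± 31.5). Pfn1-204, classed under nonsense-mediated decay, held 22.5% in replicate 1 and 1.37% in replicate 2. Protein-coding Pfn1 transcripts alone came to 6455 and 4350 TPM, so profilin kept its first place without the other classes. The junction at which Pfn1-204 leaves Pfn1-201 is given below because both have 3 exons and differ in how the first intron is cut out, with the shared exon in lower case and the bases after it in capitals.
Pfn1-201 (chr11:70652940-70654388): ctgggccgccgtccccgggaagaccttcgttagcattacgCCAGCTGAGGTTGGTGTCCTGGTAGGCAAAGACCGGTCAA
Pfn1-204 (chr11:70652915-70654388): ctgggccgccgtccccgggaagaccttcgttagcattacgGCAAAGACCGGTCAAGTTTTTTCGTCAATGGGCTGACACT
Pfn1-201 skips 1369 bases here and Pfn1-204 skips 1394, so the start of the capitals of Pfn1-204 occurs further along in those of Pfn1-201.

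The beta thymosins were nearly absent. Tmsb10 (ENSMUSG00000079523.4, chr6:72957347-72958748, minus strand) stood at 3.16 TPM in replicate 1 against 1.14 in replicate 2 (2.15 ± 1.43, SD, n = 2), from 34 and 25 counts. Its scaled counts were 2.13-fold higher in replicate 1 (log2 ratio 1.09, adjusted p = 0.00381 in the exact binomial test), with a counting interval of 1.30 to 3.92 on a ratio of 2.24 before the prior count was added. Tmsb4x (ENSMUSG00000049775.12, chrX:167207093-167209315, minus strand), which encodes the main subunit-sequestering peptide of many blood cells, stood at 0.45 TPM in replicate 1 against 0.07 in replicate 2, from 7 and 2 counts. The exact 95% counting intervals of these levels, 0.181 to 0.927 TPM and 0.00848 to 0.253 TPM, overlap. The scaled ratio was 5.77 with a counting interval of 1.10 to 57.0. At this depth the size of the Tmsb4x difference is hardly fixed, but both libraries bound its level under 1 TPM as far as counting error goes.

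The coding sequences of the thymosins, printed whole because they show how far these lowly counted genes can be told apart, are 132 bases long and differ at 40 (69.7% identical); capitals mark the bases that differ.
Tmsb4x-201 (chrX:167207504-167208036): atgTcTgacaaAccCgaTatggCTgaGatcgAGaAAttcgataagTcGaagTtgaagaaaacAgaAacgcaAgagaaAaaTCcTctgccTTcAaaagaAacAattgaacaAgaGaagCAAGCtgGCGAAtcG
Tmsb10-203 (chr6:72957621-72958012): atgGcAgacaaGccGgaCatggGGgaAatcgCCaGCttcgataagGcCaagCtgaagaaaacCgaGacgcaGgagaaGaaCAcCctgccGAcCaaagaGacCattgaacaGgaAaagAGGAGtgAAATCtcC
None of the 50-base runs of Tmsb4x occur in transcripts of another gene. Of those of Tmsb10, 27.0% do, but none of the genes that share them had a count. All Tmsb10 counts were given to Tmsb10-203 in both libraries. Those of Tmsb4x went to Tmsb4x-201 in replicate 1 and to Tmsb4x-203 in replicate 2.

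Cfl1, cofilin-1 (ENSMUSG00000056201.6, chr19:5490455-5495201, plus strand), was the second most abundant of the 10 genes in the mean. It stood at 2144 TPM in replicate 1 against 752 in replicate 2 (1448 ± 984, SD, n = 2), from 53788 and 39235 expected counts. Scaled counts were 2.26-fold higher in replicate 1 (log2 ratio 1.18), the opposite direction to Actb. The table lists a single transcript for it, Cfl1-201, so no division between transcripts enters this value. Cfl1 therefore stood 6.34-fold above Actb in replicate 1 and at 0.717 of Actb in replicate 2, and the order of cofilin and beta actin differed between the libraries. Of its 50-base runs, 7.25% occur in other genes.

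Arpc2, a core subunit of the Arp2/3 complex (ENSMUSG00000006304.10, chr1:74236084-74268209, plus strand), stood at 1068 TPM in replicate 1 against 646 in replicate 2 (857 ± 299, SD, n = 2). Its expected counts of 33679 and 42543 gave a 1.31-fold higher scaled count in replicate 1 (log2 ratio 0.38). Its leading transcript was the same in both libraries: Arpc2-201 held 90.0% in replicate 1 and 85.4% in replicate 2 (87.7 ± 3.31), and Arpc2-203 held 9.69% and 14.5%. Coro1a, coronin 1A, a partner of actin filaments and Arp2/3 typical of blood cells (ENSMUSG00000030707.11, chr7:126699773-126707787, minus strand), stood at 7.76 TPM in replicate 1 against 9.38 in replicate 2 (8.57 ± 1.15). From 283 and 731 counts, its scaled counts were 1.56-fold higher in replicate 2 (log2 ratio -0.64, adjusted p = 9.68e-11). Coro1a-201 held 93.5% and 97.6% of it. Arpc2 stood 138-fold above Coro1a in replicate 1 and 68.8-fold above it in replicate 2.

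The tropomyosins split into an abundant and an almost absent gene. Tpm3 (ENSMUSG00000027940.14, chr3:90072649-90100902, plus strand) stood at 248 TPM in replicate 1 against 203 in replicate 2 (225 ± 32.3, SD, n = 2), the smallest relative spread in TPM of the 10 genes except that of Coro1a. From 6561 and 8221 expected counts, its scaled counts were 1.32-fold higher in replicate 1 (log2 ratio 0.40). Tpm4 (ENSMUSG00000031799.9, chr8:72134975-72153142, plus strand) had 1 count in replicate 1, given to Tpm4-201, and 0 counts in replicate 2. Its level was 0.02 TPM in replicate 1, with an exact upper counting limit of 0.111 TPM, and 0 TPM in replicate 2, where a count of 0 allows up to 0.0524 TPM. No fold is given.

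The Tpm3 transcripts were divided differently in the libraries. Tpm3-203, a protein-coding transcript of 8 exons, held 73.5% in replicate 1 and 0.16% in replicate 2. The retained-intron transcript Tpm3-212 held 11.7% in replicate 1 and 79.7% in replicate 2 (45.7 ± 48.1). Tpm3-202, a protein-coding transcript of 9 exons, held 11.6% and 7.79%. Protein-coding Tpm3 transcripts thus came to 218 TPM in replicate 1 against 40.3 in replicate 2. The sequences at the point where Tpm3-212 reads into the intron are shown because Tpm3-203 and Tpm3-212 part there. Lower case marks the shared exon and capitals the bases that follow it in each transcript.
Tpm3-203 (chr3:90087705-90089087): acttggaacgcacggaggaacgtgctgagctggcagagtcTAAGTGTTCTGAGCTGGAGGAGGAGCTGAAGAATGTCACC
Tpm3-212 (chr3:90087705-90087784): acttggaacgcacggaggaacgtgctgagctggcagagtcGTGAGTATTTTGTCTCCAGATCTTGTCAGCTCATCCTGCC
Tpm3-203 skips 1303 bases here. Of the 655 bases of Tpm3-212, 183 lie outside the exons of Tpm3-203 and 472 inside them.

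Tpm3 shares 23.2% of its 50-base runs with other genes, and its near-identical copy Tpm3-rs7 (chr14:113314608-113316754, plus strand), a single exon that the annotation classes as protein-coding, shares the most. Over the 744 coding bases of Tpm3-201 the copy differs at 3 (99.6% identical). The first 120 coding bases, with the 2 that differ in capitals, show how few positions can separate their reads.
Tpm3-201 (chr3:90079732-90079851): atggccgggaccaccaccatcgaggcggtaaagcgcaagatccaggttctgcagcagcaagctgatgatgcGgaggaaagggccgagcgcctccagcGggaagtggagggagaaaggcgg
Tpm3-rs7-201 (chr14:113314676-113314795): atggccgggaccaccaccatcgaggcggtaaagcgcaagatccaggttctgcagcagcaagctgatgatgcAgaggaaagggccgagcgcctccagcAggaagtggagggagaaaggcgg
Tpm3-rs7 was given 780 counts in replicate 1 and 19540 in replicate 2 (15.97 and 191 TPM), 15.2-fold higher in replicate 2 after scaling. It took 10.6% of the counts of both genes together in replicate 1 and 70.4% in replicate 2. Summed with its copy, Tpm3 had 7341 and 27761 counts and was 2.29-fold higher in replicate 2 (log2 ratio -1.20), so the direction for Tpm3 turned and the difference passed 2-fold. Tpm3 levels and transcript shares are therefore uncertain to the extent that reads can be placed on either gene. Of the 50-base runs of Tpm3-212, 60.7% are also in Tpm3-rs7, a larger share than the 406 of 1041 runs of Tpm3-203. The share is not particular to Tpm3-212: it is 59.8% for the protein-coding Tpm3-202 and 66.8% for Tpm3-201.

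**Figure D4:**
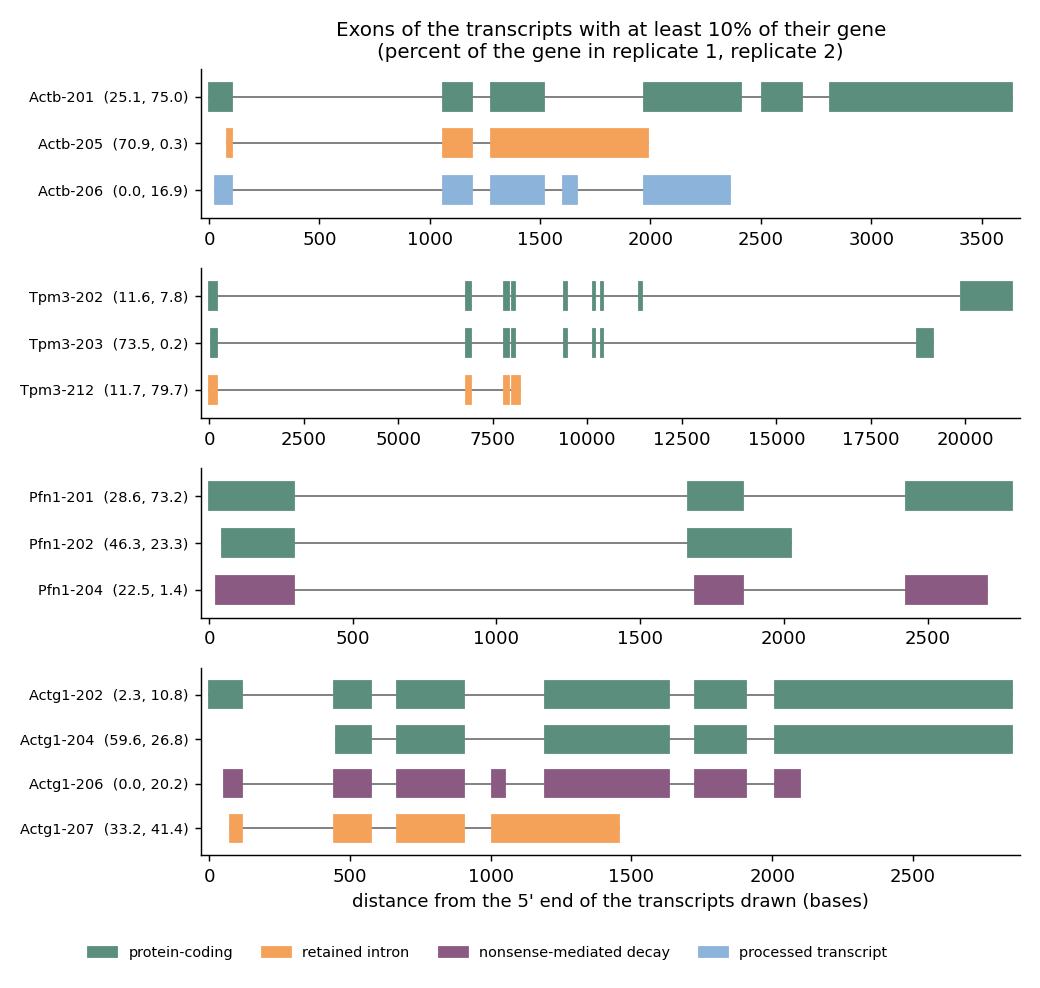
Exons (boxes) and introns (lines) of the transcripts with at least 10% of their gene in either library, for Actb, Tpm3, Pfn1 and Actg1, by distance in bases from the 5' end of the transcripts drawn; numbers beside each name are its percent of the gene in replicate 1 and replicate 2. The retained-intron transcripts Actb-205, Tpm3-212 and Actg1-207 stop early, inside an intron or an exon extended into one.

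Of the 10 genes, 5 had at least 10 TPM in both libraries and at least 2 transcripts (Actb, Actg1, Pfn1, Tpm3 and Arpc2), and in 4 of these the leading transcript differed between the libraries, all but Arpc2. Among 3850 protein-coding genes that meet the same limits it differed in 25.6%. A transcript that is not protein-coding led 1 of the 5 in replicate 1 (Actb) and 2 of the 5 in replicate 2 (Actg1 and Tpm3), beside 31.4% and 28.5% of those 3850 genes. The share of TPM outside protein-coding transcripts was 71.1% in replicate 1 and 17.5% in replicate 2 for Actb, 37.8% and 61.9% for Actg1, 25.1% and 3.59% for Pfn1, and 12.2% and 80.1% for Tpm3. The medians over the 3850 genes were 9.10% and 8.49%. These shares come from the division of reads among overlapping transcripts and carry no test here.

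The rest of the actin system was described by 12 lists of 100 other genes. Of these, 69 stood at 1 TPM or more in both libraries, 18 at 100 TPM or more, and 11 had no count. Among all genes 20.2% reached 1 TPM and 2.63% reached 100 TPM in both libraries, and among protein-coding genes 38.6% and 5.13%. The muscle and other tissue-restricted actins were at or near 0: of 5, 4 had no count and Acta1, skeletal muscle actin, had 0 and 4. All 9 other Arp2/3 subunits were at 1 TPM or more, led by Arpc1b at 947 TPM in replicate 1 against 790 in replicate 2. In scaled counts Arpc1b ran the other way, higher in replicate 2 (log2 ratio -0.71). Its paralog Arpc1a stood at 16.7 and 97.5 TPM. Tpm1, the other abundant tropomyosin, stood at 202 and 154 TPM, close to Tpm3, and Tmod3, which caps the slow-growing filament end, at 12.3 and 14.5 TPM. Only these 2 of the 6 other tropomyosins and tropomodulins reached 1 TPM in both libraries.

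At 1 TPM or more in both libraries were 7 of 10 capping and severing proteins and 13 of 18 nucleation factors. So were 6 of 9 other coronins and Arp2/3 inhibitors, and 4 of 7 other profilins, cofilins and their partners. Among all genes 20.2% were, and among protein-coding genes 38.6%. Capzb, the beta subunit of capping protein, stood at 236 TPM in replicate 1 against 152 in replicate 2, and the severing protein gelsolin (Gsn) at 1.03 and 2.95 TPM. Cttn, cortactin, which stabilises branches, stood at 380 and 416 TPM, and Wipf1, a binding partner of WASP, at 0.89 and 0.06 TPM. Coro7 was the most abundant coronin listed at 190 and 179 TPM, far above Coro1a in both libraries. Coro1b, chosen after its values were seen, was close to it at 189 and 163 TPM. In scaled counts Coro7 ran the other way, 2.15-fold higher in replicate 2 (log2 ratio -1.10). Of the other subunit and severing regulators, Wdr1, the cofactor of cofilin, stood at 25.6 and 28.5 TPM, and Dstn, the relative of Cfl1, at 11.3 and 17.4 TPM.

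Of the 3 membrane linkers of the ERM family, 3 reached 1 TPM in both libraries, and of the 11 bundling and crosslinking proteins, 7. The share was 20.2% among all genes and 38.6% among protein-coding genes. Add1, alpha adducin, which caps actin in the red cell skeleton, stood at 458 TPM in replicate 1 against 356 in replicate 2. In scaled counts Add1 was slightly higher in replicate 2 (log2 ratio -0.11). Add2 stood at 33.0 and 65.5 TPM. Ezrin (Ezr) stood at 431 and 554 TPM and moesin (Msn) at 17.1 and 56.1 TPM. Srf, the factor that drives many actin genes, stood at 87.3 and 58.1 TPM. Of its actin-sensing coactivators, Mrtfb stood at 0.75 and 1.07 TPM. The other on the list, Mrtfa, chosen after its values were seen, stood at 20.4 and 16.3 TPM.

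Of the 77 listed genes with enough counts, 18 (23.4%) were at least 2-fold apart between the libraries, beside 26.8% of all genes compared. In replicate 1, 4 were higher (Wipf1, Marcksl1, Rock1 and Rock2, of which the last 3 were chosen after their values were seen), beside 7.32% of all genes, and 14 were higher in replicate 2, beside 19.5%. The list of non-muscle myosin II, the motor that pulls on actin, had 3 of 5 compared genes (the light chains Myl6, Myl12a and Myl12b) at least 2-fold higher in replicate 2 and a median log2 ratio of -2.34, beside -0.06 for all genes. It was led by Myl6 at 20.6 TPM in replicate 1 against 328 in replicate 2 (log2 ratio -4.30). The other light chains were chosen after their values were seen, and counts of all 3 were not whole, so reads shared with other genes were divided among them. The other Arp2/3 subunits had a median log2 ratio of 0.43, with 1 of 9 at least 2-fold apart, Arpc1a, which was higher in replicate 2.

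**Figure D5:**
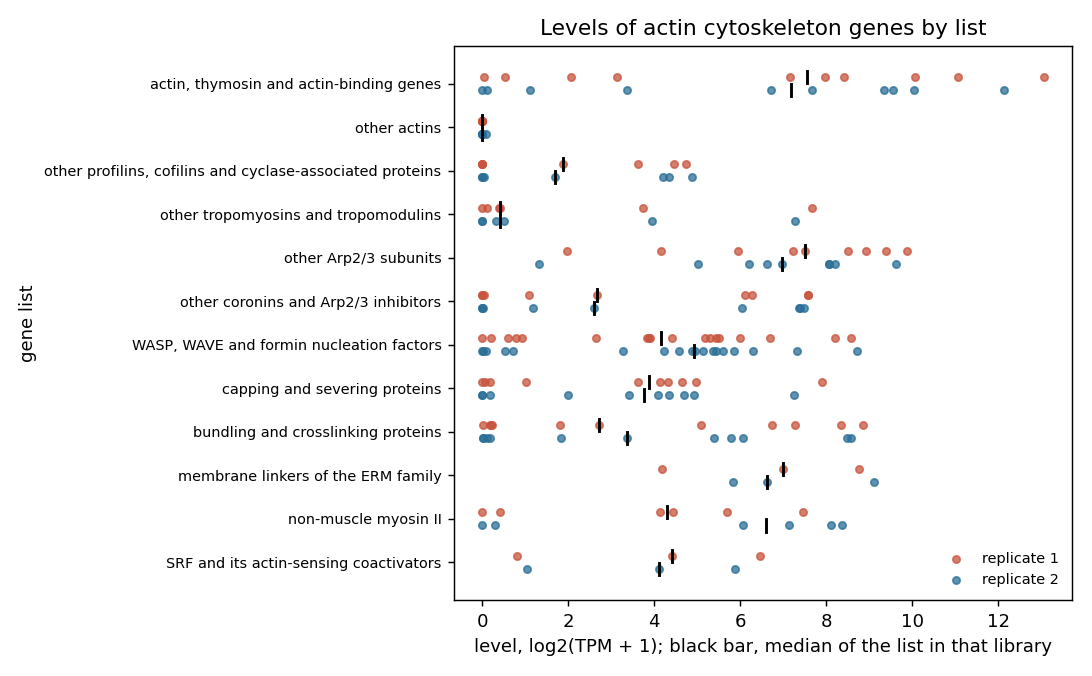
Level of every gene of each list drawn as log2(TPM + 1), with red points above for replicate 1 and blue points below for replicate 2; black bars are list medians in that library. The other actins lie at 0, the other Arp2/3 subunits have medians of 182 TPM and 124 TPM in replicates 1 and 2, and the non-muscle myosin II list has medians of 18.6 TPM and 103 TPM.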

How the data were processed

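RNA of 1 group of 2 libraries was analysed, each with gene and transcript tables. Per the text deposited with the tables, reads were aligned to mm10 and quantified on GENCODE M4 from transcriptome alignments. Which aligner and quantifier were run is not given in the sources used here. The deposited expected counts are estimated fragments, not whole where a fragment matches several transcripts. The deposited TPM values are scaled to effective length and to an equal total, the deposited FPKM values were not used, and the deposited percent values are each transcript's share of its gene's TPM. The deposited interval bounds and posterior deviations (non-negative signal columns) were not used. Symbols matched 42462 of 43346 genes. The 97 spike-in sequences and 26248 entries named by number held 1 count in all and were left out. Coordinates, classes and sequences are those of GENCODE M21 (GRCm38); of 63 transcripts of the 10 genes, 62 were found there.

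Counts were rounded, scaled by TMM (edgeR 4.0.16) and compared by the exact conditional binomial test (scipy 1.17.1) at an adjusted p of 0.05, with a prior count of 2 in log2 ratios. The script was tested on simulated data. With 1 library a side no residual degrees of freedom remain for edgeR's quasi-likelihood test, and an exact permutation test of 2 against 2 values cannot go below 0.33. Counting intervals are exact at 95% and cover counting error only; a count of 0 allows 3 counts, which is 9.64e-06% of replicate 1 and 5.19e-06% of replicate 2. Shared sequence was counted in runs of 50 bases over M21 transcripts.

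The 10 genes, the lists and the rules were chosen with earlier results of these data known. Named were the 10 genes, their transcripts with at least 10% of the gene in either library, and of each other list the gene with the highest mean TPM and that with the largest log2 ratio; 1 item of these and 1 sequence are not reported here. Alternatives used other scalings (DESeq2 1.42.0 size factors among them), posterior means, other thresholds and single libraries.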

Additional observations from a re-analysis of the deposited data

How the results depend on the processing

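Under their alternatives, 149 single-gene values and 40 summary values counted as kept, by a rule that differed with the kind of value. A ratio between the libraries counted as kept on its sign and its side of the adjusted p threshold, whatever its size. With upper quartile scaling that of Tpm3 went from 0.40 to 0.61 and still counted as kept. On the TPM scale a ratio had to stay in its counting interval. Counts of genes could move within a set fold: 3 genes at least 2-fold apart became 2 on the TPM scale. For levels, shares and gene-pair ratios the tolerance is the SD of the 2 libraries, which is large. Leaving out 1 of 2 libraries never moves their mean by more than this SD. For levels and shares, such alternatives were therefore bound to count as kept, and they say nothing about stability. For gene-pair ratios they could only turn. Without replicate 1, Actb-205 is at 0.27% in place of 35.6% and Tpm3-203 at 0.16% in place of 36.8%. The summaries that moved did so with protein-coding transcripts only, an alternative added after seeing the data: the median level of the 10 genes became 66.5 TPM in place of 174, and 3 genes in place of 6 stood at 100 TPM or more in both libraries. Counts summed with the closest copy, also added after seeing the data, turned the log2 ratio of Actg1 to -0.094 and that of Tpm3 to -1.20. The log2 ratio of Cfl1 over Actb was 2.66 without replicate 2 and turned to -0.48 without replicate 1. On the log2(TPM + 1) scale the ratio of Actb was -1.63, that of Cfl1 1.51 and that of Tmsb10 0.96, under 2-fold, although its TPM without the pseudocount differed 2.77-fold. Leaving out either library put the median level at 153 to 195 TPM and the Actb share of the actins at 70.4% to 91.0%. That share was 52.6% in replicate 1 and 95.6% in replicate 2 with protein-coding transcripts only, and 63.9% and 92.9% on expected counts. A further 19 single-gene values moved without turning, most of them ratios on the TPM scale or of Tmsb4x (7 and 2 counts) and Tpm4 (1 and 0 counts), for which depth limits every ratio. No paired analysis was possible because there is 1 group only.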
